A study of Homo sapiens with 4 samples.

Results

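The core spliceosome protein genes described here are 46 genes that encode protein parts of the small nuclear ribonucleoproteins (snRNPs) and of the factors that work directly with them. They were chosen by name, for the place of their proteins in the splicing machinery, and all 46 were found among the 57979 genes with values. Their mRNA levels were measured by RNA-seq of polyadenylated RNA in 4 libraries, 2 from wild-type (WT) cells and 2 from TXNDC9 knockout (TXNDC9-KO) cells. Both groups were labelled HepG2, a human liver cancer line, grown without any further treatment that the labels name. The knockout was made with CRISPR-Cas9 and lentiviral guide RNAs aimed at the first exon of TXNDC9, a thioredoxin-like cofactor of the TCP1 chaperonin. For a protein blot the study describes sorted infected cells and a control with the vector alone. Whether the sequenced cells were those, and whether they were a clone or a pool, was not given in the sources used here. The labels do not say whether the 2 replicates of a group came from separate cultures. A legend of the study speaks of independent experiments for RNA-seq values, with a number that is not that of the libraries here, so each p-value below measures only the spread between these libraries, which may be technical.

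The labelled cell line was checked against its markers first. None of 10 liver genes that HepG2 cells are known for (ALB, AFP, APOA1, APOA2, APOB, TTR, SERPINA1, FGB, TF and HNF4A) exceeded 0.449 FPKM (fragments scaled to transcript length and library size) in any library, and APOA1 was listed at 0 in all 4. The summed FPKM of these 10 genes was 0.553 and 0.733 in the WT libraries and 0.194 and 0.365 in the TXNDC9-KO libraries. The label is therefore used below only as a label. Markers of other cells were mixed. The summed FPKM of 4 fibroblast genes was 51.1 and 46.9 in WT and 34.2 and 30.8 in TXNDC9-KO, with COL1A2 listed at 0. The summed FPKM of 3 leukocyte genes was 3.42 and 5.34 in WT and 5.96 and 7.04 in TXNDC9-KO, with CD3E listed at 0. The summed FPKM of 2 endothelial genes was 0.803 and 1.21 in WT and 4.39 and 3.40 in TXNDC9-KO. Of these marker genes 1 was called, the endothelial cadherin CDH5, which was higher by 1.92 on the log2 scale. The part of these shifts in the results below was not tested, and in bulk RNA fewer cells of a type and less RNA per cell cannot be told apart.

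TXNDC9 itself was at 35.1 and 37.3 FPKM in WT and at 21.9 and 27.6 FPKM in TXNDC9-KO, a log2 fold change of -0.55 (limma, adjusted p = 0.0145) that reversed to 0.12 after rescaling. An edit in an exon need not lower the mRNA, so this level does not check the labels. MYC, the transcription factor the study follows, was at 175 and 168 FPKM in WT and at 129 and 130 FPKM in TXNDC9-KO, a log2 fold change of -0.41 (limma, adjusted p = 0.0182) that reversed to 0.28 after rescaling. Neither gene was called.

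The scale of the deposited values bears on every direction below. The FPKM values of all genes summed to 805816 and 971102 in the WT libraries and to 535973 and 568279 in the TXNDC9-KO libraries. Rescaling each library to the same sum, the unit known as TPM, moved the median change across the 13246 tested genes, in log2, from -0.09 to 0.59. The 46 spliceosome genes moved with it, and their median stood 0.80 below that of all tested genes on either scale. Rescaling shifts all genes of a library alike, so it could hardly change this gap. After the correction for length and GC content given below, the difference of the medians was -0.59. The 46 genes took up 0.863% and 0.875% of the summed FPKM in WT and 0.674% and 0.688% in TXNDC9-KO. Their combined share was thus lower in both TXNDC9-KO libraries than in both WT libraries.

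The spliceosome removes introns from precursor mRNA. The snRNPs U1, U2, U4, U5 and U6 each carry a small nuclear RNA and proteins, and they come together anew on each intron: U1 binds the splice donor, U2 the branch site, and the U4/U6.U5 tri-snRNP then brings the parts that form the catalytic centre. A second, minor spliceosome with its own U11 and U12 snRNPs removes a small class of introns. These proteins are made in all dividing cells, and tumour cells driven by MYC are known to depend on them.

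Of the 46 genes, 21 were called lower in TXNDC9-KO, none was called higher and 25 were not called, where a call meant a limma adjusted p under 0.01 and at least a 2-fold difference. Over all 13246 tested genes the same rule called 15.3% lower and 14.2% higher. Both TXNDC9-KO values lay below both WT values for 38 of the 46 genes, against 45.9% of all tested genes. Both lay above for 4 (CDC5L, U2AF1, PRPF4 and SNRNP48), against 40.1% of all tested genes, and the groups overlapped for SF3A3, SF3B1, SF3A1 and EFTUD2. The median log2 fold change was -0.89 over the 46 genes and -0.09 over all tested genes. An unadjusted p under 0.05 was reached by 37 of the 46 genes with a lower value and by 2 with a higher one. It was reached by 9442 of the 13246 tested genes in either direction. The calls also depended on the libraries used. Without WT replicate 1 there were more lower calls among the 46 genes, and without WT replicate 2 there were fewer. Without TXNDC9-KO replicate 1, or without TXNDC9-KO replicate 2, no call was left among these genes or among all tested genes. Each of these fits has 1 library in a group, so only medians are given. In log2, the median of the 46 genes was -1.05 without WT replicate 1 and -0.77 without WT replicate 2. It was -0.86 without TXNDC9-KO replicate 1 and -0.97 without TXNDC9-KO replicate 2. Over all tested genes these medians were -0.13, -0.04, -0.06 and -0.11.

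**Figure D1:**
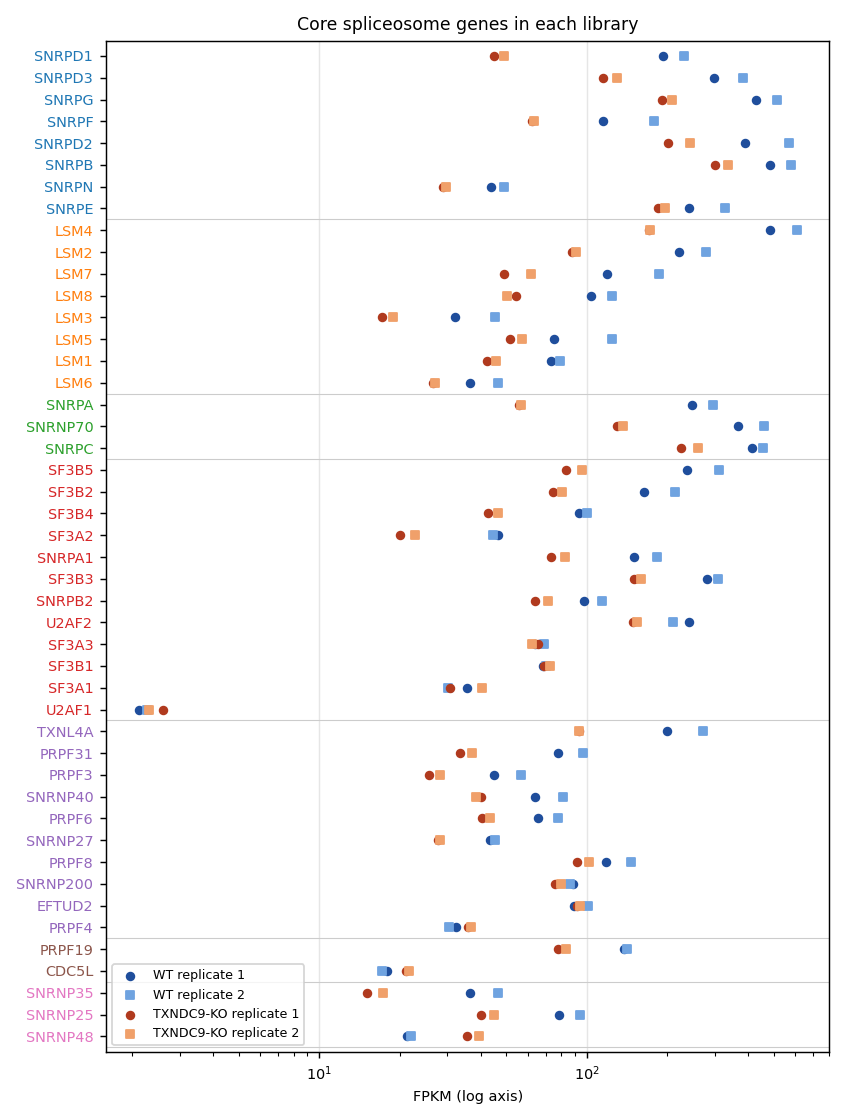
Each row is a gene, grouped by the particle its protein belongs to and coloured as such, and each point is the FPKM of that gene in 1 of the 4 libraries on a log axis (blue, WT; red and orange, TXNDC9-KO). For 38 of the 46 genes both red and orange points lie left of both blue points, and SNRPA and SNRPD1 show the widest gaps.

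**Figure D2:**
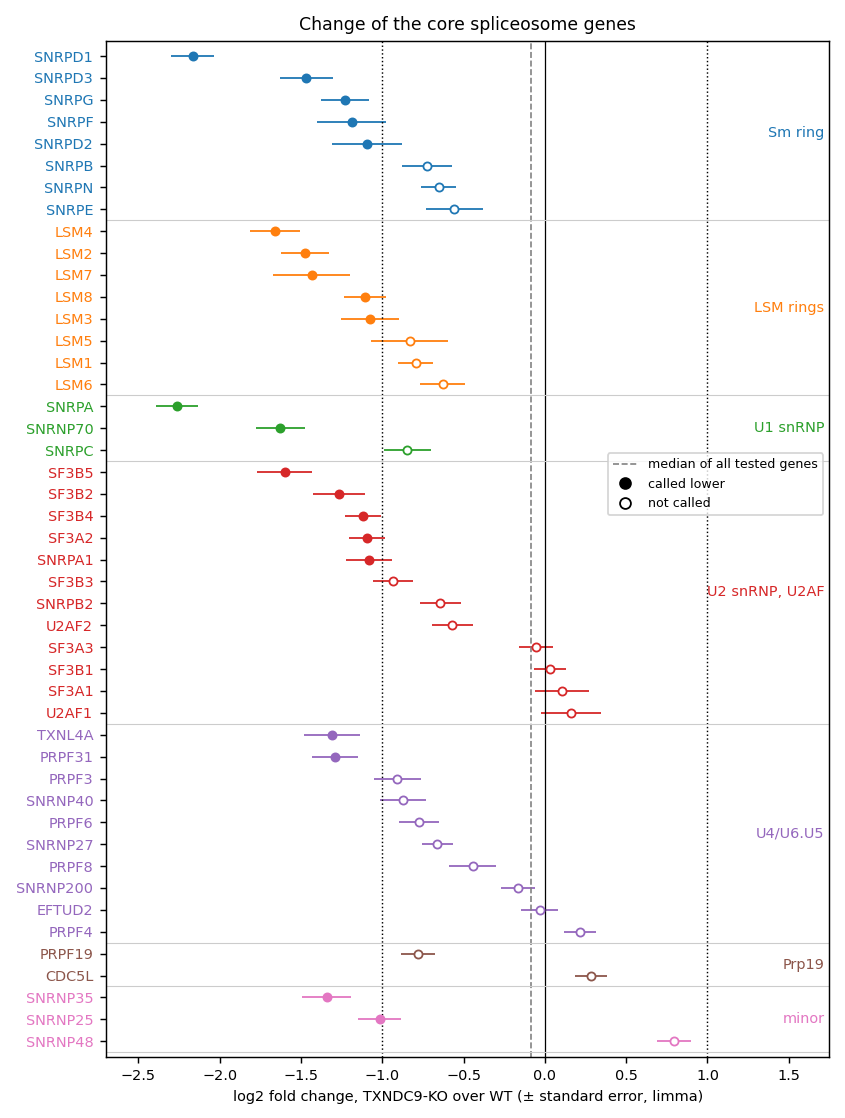
Points are log2 fold changes of TXNDC9-KO over WT with the standard error from limma, from 2 libraries in each group. Filled points were called lower, the dotted lines mark a 2-fold difference and the dashed line the median of all tested genes at -0.09. All 21 filled points lie left of the dotted line on the left and no point lies right of the dotted line on the right.

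The scale decided how many calls were made, and these counts are given here for the whole list. Rescaled to TPM, 2 of the 46 genes were called lower (SNRPA and SNRPD1) and 1 higher (SNRNP48), where the rule called 3.37% of all tested genes lower and 33.1% higher. At an unadjusted p under 0.05, 22 were lower and 10 higher, and 9585 of the 13246 tested genes passed in either direction. The list's median was then -0.21. After a loess curve on length and GC content of the transcripts had been taken out of each library, 11 of the 46 genes were called lower and 0 higher, against 7.39% lower and 6.41% higher of the 13112 genes with a transcript length. At an unadjusted p under 0.05, 36 were lower and 1 higher, and 8133 of the 13112 genes passed in either direction. The list's median was then -0.64 and that of all corrected genes was -0.05. Of these 11 genes, 9 were among the 21 (LSM3, LSM8, SF3B2, SNRPA, SNRPD1, SNRPD3, SNRPF, SNRPG and TXNL4A), and LSM5 and SF3B3 joined them. SNRPA and SNRPD1 were the genes called lower on all 3 scales. Of all calls in the table, 48.3% were higher on the deposited scale, 90.7% after rescaling to TPM and 35.8% after centring each library on its median, which called 24 of the 46 genes lower.

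**Figure D3:**
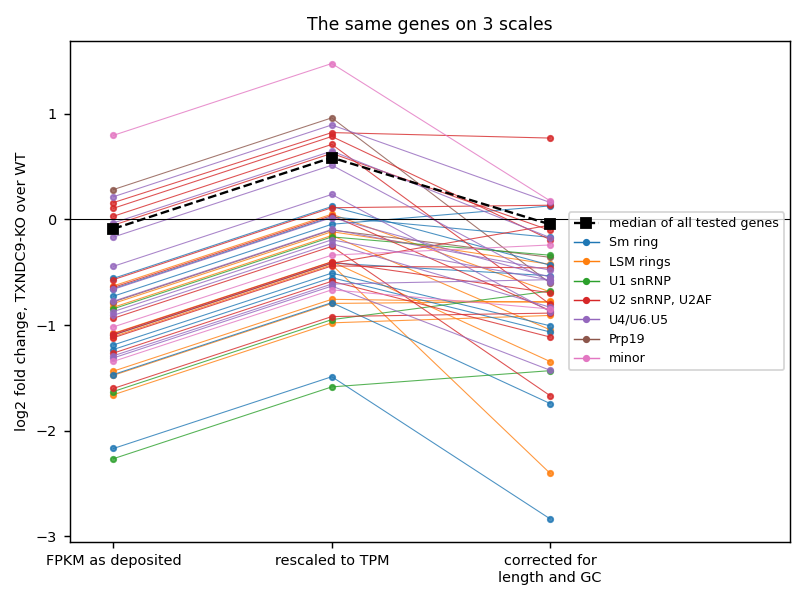
Each line is 1 of the 46 genes, coloured by particle, and joins its log2 fold change of TXNDC9-KO over WT on the deposited FPKM scale, after rescaling to TPM and after the correction for length and GC content. Black squares are the medians of all tested genes (-0.09, 0.59 and -0.05), and most of the lines stay below them on each scale.

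The U1 snRNP opens the assembly by pairing with the splice donor. The mRNAs of its 3 own proteins were all lower in both TXNDC9-KO libraries than in both WT libraries, against 45.9% of all tested genes. Of the 3, 2 were called lower, against 15.3% of all tested genes. SNRPA, which encodes U1-A, the protein that holds the second stem-loop of U1 snRNA, is annotated at chr19:40750637-40765389 on the plus strand of hg38. It was at 246 and 296 FPKM in WT and at 55.9 and 56.4 FPKM in TXNDC9-KO. The groups lay far apart, and the log2 fold change was -2.26 ± 0.13 (SE; limma, adjusted p = 0.000487), a 4.80-fold lower level. It was still -1.58 after rescaling to TPM and -1.43 after the length and GC correction. SNRNP70 encodes U1-70K, which binds the first stem-loop and contacts regulatory splicing factors. Its level was 368 and 461 FPKM in WT and 130 and 136 FPKM in TXNDC9-KO, a log2 fold change of -1.63 ± 0.15 (SE; limma, adjusted p = 0.000637), and it was not called on either of the other scales. SNRPC encodes U1-C, which steadies the pairing with the splice donor. It was at 413 and 456 FPKM in WT and at 224 and 260 FPKM in TXNDC9-KO, a log2 fold change of -0.85 ± 0.14 that missed the 2-fold limit. The table also lists 18 SNRPC pseudogenes, whose summed FPKM was at most 8.98 in any library.

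U1-A has a close relative in the U2 snRNP, U2B″, encoded by SNRPB2 on chromosome 20, and on the deposited scale the log2 fold changes of the pair were unlike. SNRPB2 was at 97.7 and 114 FPKM in WT and at 64.0 and 71.3 FPKM in TXNDC9-KO, so the groups did not overlap, but the log2 fold change of -0.64 ± 0.13 was not a call and became 0.04 after rescaling to TPM. Within each library the ratio of SNRPB2 to SNRPA does not depend on the sum to which that library was scaled, but it does depend on a correction by length and GC content. The ratio was 0.397 and 0.385 in WT and 1.15 and 1.26 in TXNDC9-KO. The mRNA for U1-A was thus the more abundant of the pair per length in both WT libraries and the less abundant in both TXNDC9-KO libraries. The mean ratio was 0.391 ± 0.00891 (SD, n = 2) in WT and 1.20 ± 0.0824 (SD, n = 2) in TXNDC9-KO, 3.08 times as high. A two-sided exact permutation test gave p = 0.333, the smallest value that 2 libraries against 2 can give. After the length and GC correction SNRPB2 was at -0.86 in log2 and SNRPA at -1.43, and the ratio was then 1.48 times as high in TXNDC9-KO.

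The promoters of this pair are printed because the genes are close relatives with unlike changes on the deposited scale and because the study concerns MYC. Each window, from RefSeq (GRCh38.p14), holds 250 bases upstream of the start site and 50 bases downstream, in lower case, and capitals mark the ETS core CCGGAAG on either strand, a sequence bound by ETS family factors at many housekeeping promoters. The SNRPA window is chr19:40750953-40751252 and that of SNRPB2 is chr20:16729776-16730075, both on the plus strand.
SNRPA: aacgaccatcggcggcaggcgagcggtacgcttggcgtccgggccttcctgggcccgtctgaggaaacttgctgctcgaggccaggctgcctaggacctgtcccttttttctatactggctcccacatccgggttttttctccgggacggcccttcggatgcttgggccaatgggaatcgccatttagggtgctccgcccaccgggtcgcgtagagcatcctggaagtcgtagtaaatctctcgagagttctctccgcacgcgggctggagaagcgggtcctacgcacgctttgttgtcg
SNRPB2: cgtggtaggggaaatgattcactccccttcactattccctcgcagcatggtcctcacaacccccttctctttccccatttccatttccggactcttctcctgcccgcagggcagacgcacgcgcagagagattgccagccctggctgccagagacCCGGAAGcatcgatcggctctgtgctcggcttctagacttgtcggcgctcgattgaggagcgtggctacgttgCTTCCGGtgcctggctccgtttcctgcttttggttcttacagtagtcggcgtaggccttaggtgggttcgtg
The SNRPB2 window held 2 matches, which began 95 and 22 bases before the start site, and the SNRPA window held none. Neither window held the E-box CACGTG, the sequence that MYC binds with its partner MAX. Its letters cannot overlap those of the ETS core.

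Over the list, 40 of the 46 genes had a RefSeq window. The ETS core was found on either strand in 18 of these 40 windows (45%), in 20.5% of the windows of 9007 tested genes and in 10.7% of all 27305 windows. It was in 7 of the 19 windows of genes called lower and in 11 of the 21 windows of genes not called. Over all tested genes it was in 23.9% of the windows of those called lower and in 17.2% of those called higher. The E-box was found in 3 of the 40 windows (7.5%), those of SNRNP48, SF3B1 and EFTUD2, in 10.6% of the windows of tested genes and in 7.43% of all windows. None of the 19 windows of genes called lower held it. Over all tested genes it was in 10.8% of the windows of those called lower and in 10.6% of those called higher. Whether the 19 windows differ from these shares was not tested. A match here is a match of letters in a window of 300 bases and not a measured binding site.

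The Sm proteins form the ring that sits on the snRNAs of U1, U2, U4 and U5 and is loaded in the cytoplasm by the SMN complex. All 8 Sm genes were lower in both TXNDC9-KO libraries than in both WT libraries, against 45.9% of all tested genes. Of the 8, 5 were called lower, against 15.3% of all tested genes. The median log2 fold change of the 8 was -1.14, which became -0.46 after rescaling to TPM and -0.77 after the length and GC correction. SNRPD1, which encodes SmD1, was at 193 and 231 FPKM in WT and at 45.0 and 48.8 FPKM in TXNDC9-KO. The log2 fold change was -2.17 ± 0.13 (SE; limma, adjusted p = 0.000496), a 4.49-fold lower level, and it stayed a call at -1.49 after rescaling to TPM. SNRPD3, which encodes SmD3, was at 298 and 383 FPKM in WT and at 115 and 130 FPKM in TXNDC9-KO. Its log2 fold change was -1.47 ± 0.16 (SE; limma, adjusted p = 0.000923). SNRPG, which encodes SmG, was at 428 and 513 FPKM in WT and at 191 and 209 FPKM in TXNDC9-KO, a log2 fold change of -1.23 ± 0.15 (SE; limma, adjusted p = 0.00112). SNRPF and SNRPD2 were called at -1.19 and -1.09. Both lost the call without WT replicate 2, at -0.87 and -0.82.

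The other 3 Sm genes were lower without a call. SNRPE was at 240 and 327 FPKM in WT and at 185 and 196 FPKM in TXNDC9-KO, a log2 fold change of -0.56 ± 0.18 (SE; limma, adjusted p = 0.0329) that turned to 0.12 after rescaling to TPM. SNRPB, which encodes SmB and SmB′, was at 483 and 577 FPKM in WT and at 302 and 338 FPKM in TXNDC9-KO, a log2 fold change of -0.73 ± 0.15 that turned to 0.13 after the length and GC correction. SNRPN encodes SmN, the relative of SmB that is known from brain and lies in an imprinted region of chromosome 15. It was at 43.7 and 48.8 FPKM in WT and at 29.0 and 29.6 FPKM in TXNDC9-KO, a log2 fold change of -0.65 ± 0.11 that turned to 0.02 after rescaling to TPM. It shares 23.9% of its exon bases with SNURF on the same strand, so reads of these genes cannot be told apart there. The proportion within this pair was taken in the same way. The ratio of SNRPN to SNRPB was 0.0904 and 0.0846 in WT and 0.0961 and 0.0877 in TXNDC9-KO, so the groups overlapped (two-sided exact permutation test, p = 0.667).

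A ring takes up its proteins in equal numbers, but only mRNA was measured in these libraries. The make-up of the Sm mRNA pool is given within each library, from FPKM not corrected for length and GC content. After that correction the log2 fold changes of SNRPD1, SNRPD3, SNRPB and SNRPE were -2.83, -1.74, 0.13 and -0.43. SNRPD1 supplied 8.79% and 8.16% of the summed FPKM of the 8 Sm genes in WT and 3.98% and 3.88% in TXNDC9-KO. SNRPD3 went from 13.6% and 13.5% to 10.2% and 10.3%. SNRPB went the other way, from 22.1% and 20.4% to 26.7% and 26.9%, and SNRPE from 11.0% and 11.6% to 16.4% and 15.6%. In these 4 genes the shares of the groups did not overlap, nor did they for SNRPG, which was lower in TXNDC9-KO, and SNRPN, which was higher. For SNRPF and SNRPD2 they overlapped. Leaving SNRPN out, the most abundant Sm mRNA exceeded the least abundant 4.20-fold and 3.24-fold in WT (SNRPB over SNRPF) and 6.71-fold and 6.92-fold in TXNDC9-KO (SNRPB over SNRPD1).

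**Figure D4:**
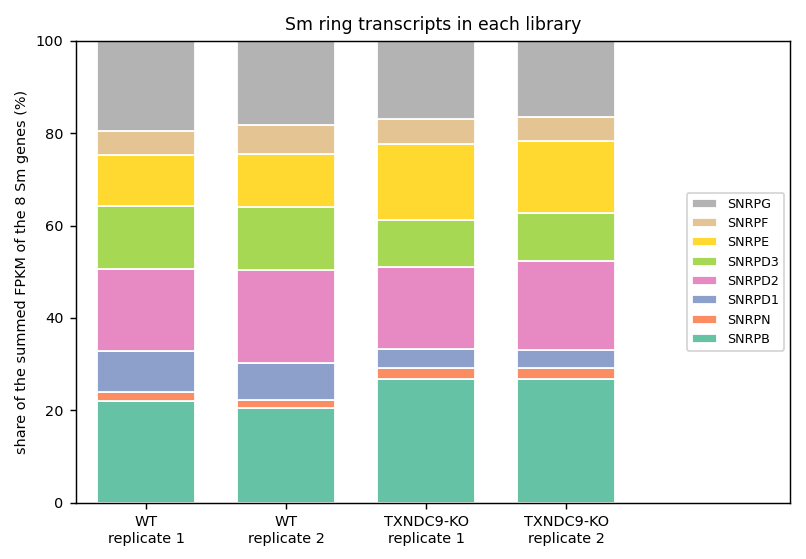
Each bar is a library and each segment the share of 1 Sm gene in the summed FPKM of the 8 Sm genes, in percent. The SNRPD1 segment is 8.79% and 8.16% of the bar in WT and 3.98% and 3.88% in TXNDC9-KO, while the SNRPB and SNRPE segments are larger in both TXNDC9-KO bars.

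The LSM proteins form 2 related rings. LSM2 to LSM8 bind the end of U6 snRNA in the nucleus, and with LSM1 in place of LSM8 the ring binds mRNAs that are about to lose their cap in the cytoplasm. All 8 LSM genes were lower in both TXNDC9-KO libraries than in both WT libraries, against 45.9% of all tested genes. Of the 8, 5 were called lower, against 15.3% of all tested genes, and the median of the 8 was -1.09 in log2. On the TPM scale the median was -0.41, none was called and LSM6 turned to 0.05. LSM4 was at 483 and 607 FPKM in WT and at 171 and 172 FPKM in TXNDC9-KO, a log2 fold change of -1.66 ± 0.15 (SE; limma, adjusted p = 0.000637). LSM2 was at 220 and 280 FPKM in WT and at 87.8 and 90.9 FPKM in TXNDC9-KO, a log2 fold change of -1.47 ± 0.15 (SE; limma, adjusted p = 0.000739). LSM7 was at 119 and 185 FPKM in WT and at 49.0 and 61.6 FPKM in TXNDC9-KO, a log2 fold change of -1.44 ± 0.23 (SE; limma, adjusted p = 0.00305). These 3 genes had the largest changes of the rings on the deposited scale, and LSM7 had the wider spread within WT. After the length and GC correction they were at -0.91, -0.78 and -0.78 without a call, and LSM8, LSM3 and LSM5 were called at -2.40, -1.34 and -1.04.

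The members that set the rings apart did not differ in direction. LSM8, which is particular to the nuclear ring, was called at -1.11, and LSM1, which is particular to the cytoplasmic ring, was at -0.80 without a call. LSM1 shares 26.1% of its exon bases with an antisense RNA, and no source used here gives the strand setting of the counting. LSM3 was called at -1.08, while LSM5 was at -0.83 with 75.2 and 124 FPKM in WT. LSM6 had the smallest change, from 36.7 and 46.7 FPKM in WT to 26.5 and 26.9 FPKM in TXNDC9-KO, a log2 fold change of -0.63 ± 0.14. LSM3 and LSM8 lost the call without WT replicate 2, and LSM5 gained one without WT replicate 1.

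The U2 snRNP marks the branch site through the SF3A and SF3B complexes, after U2AF has bound the end of the intron. The 12 genes of this group were split. Of these, 5 were called lower, against 15.3% of all tested genes. The group also held SF3A3, SF3B1 and SF3A1, 3 of the 4 genes of the whole list whose WT and TXNDC9-KO values overlapped. U2AF1, whose TXNDC9-KO values lay above, was in it too. The group's median log2 fold change was -0.79, and -0.11 after rescaling to TPM, where 6 were negative and 6 positive. SF3B5, a small protein of the SF3B complex, was at 236 and 311 FPKM in WT and at 83.5 and 95.8 FPKM in TXNDC9-KO. Its log2 fold change was -1.60 ± 0.17 (SE; limma, adjusted p = 0.000817). SF3B2 was at 163 and 214 FPKM in WT and at 74.6 and 80.7 FPKM in TXNDC9-KO, a log2 fold change of -1.26 ± 0.16 (SE; limma, adjusted p = 0.0013). SF3B4, which contacts the intron near the branch site and is mutated in Nager syndrome, was at 93.5 and 100.2 FPKM in WT and at 42.6 and 46.5 FPKM in TXNDC9-KO. Its log2 fold change was -1.12 ± 0.11 (SE; limma, adjusted p = 0.000687). SF3A2 and SNRPA1, the latter the partner of SNRPB2 on U2 snRNA, were called at -1.09 and -1.08, and SNRPA1 lost the call without WT replicate 2, at -0.94.

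SF3B1 is the scaffold of the SF3B complex, clamps the branch site and is often mutated in blood cancers. It was at 68.6 and 70.5 FPKM in WT and at 69.4 and 72.7 FPKM in TXNDC9-KO. The groups overlapped, and the log2 fold change was 0.03 ± 0.10 (SE; limma, adjusted p = 0.803), 0.71 after rescaling to TPM and -0.80 after the length and GC correction. Within the SF3B complex the log2 fold changes of SF3B1 to SF3B5 on the deposited scale were thus 0.03, -1.26, -0.93, -1.12 and -1.60. After the length and GC correction they were -0.80, -1.11, -1.67, -0.46 and -0.89, so the order changed, SF3B4 and SF3B5 were no longer called and SF3B3 was. In the SF3A complex the deposited scale gave -1.09 for SF3A2, -0.05 for SF3A3 and 0.11 for SF3A1. The corrected values were -0.05, -0.10 and -0.19, and SF3A2 was no longer called. The large U2AF subunit, U2AF2, was at -0.57 without a call and turned to 0.11 on the TPM scale and 0.14 after the correction. U2AF1, the small subunit that reads the end of the intron, was listed at only 2.11 and 2.27 FPKM in WT and 2.61 and 2.31 FPKM in TXNDC9-KO. Its near-identical copy U2AF1L5 was listed at 0.464 and 0.490 FPKM in WT and 0.748 and 0.831 FPKM in TXNDC9-KO, so reads may be split between them and the level of U2AF1 is uncertain.

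The U4/U6.U5 tri-snRNP brings the catalytic parts. Of its 10 genes 8 were lower in both TXNDC9-KO libraries than in both WT libraries, against 45.9% of all tested genes. Of the 10, 2 were called lower, a share near the 15.3% of all tested genes. The median log2 fold change of the 10 was -0.72, or -0.04 after rescaling to TPM. TXNL4A encodes Dim1, a small protein of the tri-snRNP with a thioredoxin fold. It was at 199 and 271 FPKM in WT and at 93.6 and 93.3 FPKM in TXNDC9-KO, a log2 fold change of -1.31 ± 0.17 (SE; limma, adjusted p = 0.00142), and it remained a call after the length and GC correction at -1.43. PRPF31, which holds the tri-snRNP together and is mutated in inherited blindness, was at 77.7 and 96.4 FPKM in WT and at 33.6 and 37.2 FPKM in TXNDC9-KO. Its log2 fold change was -1.29 ± 0.14 (SE; limma, adjusted p = 0.000864), and 22.0% of its exon bases are shared with an antisense RNA. PRPF3, its neighbour in U4/U6, was at 45.0 and 56.8 FPKM in WT and at 25.6 and 28.3 FPKM in TXNDC9-KO, a log2 fold change of -0.91 ± 0.14 that missed the 2-fold limit. PRPF4, which binds PRPF3, was at 0.22 with both TXNDC9-KO values above both WT values.

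The genes of the large proteins at the heart of U5 were not called. PRPF8, the scaffold of the catalytic centre, was at 118 and 146 FPKM in WT and at 91.8 and 101 FPKM in TXNDC9-KO, a log2 fold change of -0.44 ± 0.14 (SE; limma, adjusted p = 0.0359) that turned to 0.24 after rescaling to TPM. SNRNP200, the helicase that unwinds U4 from U6, was at 88.9 and 86.2 FPKM in WT and at 75.9 and 80.1 FPKM in TXNDC9-KO, a log2 fold change of -0.17 ± 0.10 (SE; limma, adjusted p = 0.197). EFTUD2, the GTPase that governs this helicase, was at 89.3 and 101 FPKM in WT and at 92.1 and 93.8 FPKM in TXNDC9-KO, so the groups overlapped at a log2 fold change of -0.03 ± 0.11. On the TPM scale SNRNP200 and EFTUD2 turned to 0.51 and 0.65. After the length and GC correction PRPF8, SNRNP200 and EFTUD2 were at -0.87, -0.59 and -0.17, and PRPF31 at -0.57. SNRNP40, PRPF6 and SNRNP27 were at -0.87, -0.77 and -0.66 without a call. Whether PRPF8, SNRNP200 and EFTUD2 differ from the 2 genes called was not tested.

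The U11 snRNP of the minor spliceosome had genes on both sides of 0. SNRNP35, the counterpart of U1-70K, was at 36.4 and 46.6 FPKM in WT and at 15.1 and 17.3 FPKM in TXNDC9-KO, a log2 fold change of -1.34 ± 0.15 (SE; limma, adjusted p = 0.000979). It shares 44.0% of its exon bases with RILPL1 on the opposite strand, so its level is uncertain without strand. SNRNP25 was at 78.4 and 94.3 FPKM in WT and at 40.1 and 44.9 FPKM in TXNDC9-KO, a log2 fold change of -1.02 ± 0.13 (SE; limma, adjusted p = 0.00149), the called value nearest to the 2-fold limit, and it lost the call without WT replicate 2, at -0.88. The nearest value outside that limit was -0.93, of SF3B3. SNRNP48, which binds the donor site of minor introns, went the other way. It was at 21.2 and 22.0 FPKM in WT and at 35.7 and 39.6 FPKM in TXNDC9-KO, a log2 fold change of 0.80 ± 0.10 (SE; limma, adjusted p = 0.00148) that was under 2-fold and was called on the TPM scale at 1.48. After the length and GC correction it was 0.18.

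The SNRNP48 window, chr6:7589948-7590247 on the plus strand, is printed because SNRNP48 has the highest log2 fold change of the 46 genes and is 1 of the 3 with an E-box, which is in capitals and began 33 bases before the start site.
SNRNP48: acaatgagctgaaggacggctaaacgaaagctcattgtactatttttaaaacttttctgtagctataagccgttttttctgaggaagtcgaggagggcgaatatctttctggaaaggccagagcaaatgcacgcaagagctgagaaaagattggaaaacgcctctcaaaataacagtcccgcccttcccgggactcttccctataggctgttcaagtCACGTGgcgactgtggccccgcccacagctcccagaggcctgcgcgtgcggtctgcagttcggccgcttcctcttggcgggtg
The window holds the palindrome in full, and whether MYC occupies it was not measured in these libraries.

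The Prp19 complex joins at activation and stays through catalysis. PRPF19, its ubiquitin ligase, was at 137 and 141 FPKM in WT and at 78.3 and 83.7 FPKM in TXNDC9-KO, a log2 fold change of -0.78 ± 0.11 (SE; limma, adjusted p = 0.00165) without a call. CDC5L, its scaffold, was at 17.9 and 17.2 FPKM in WT and at 21.1 and 21.6 FPKM in TXNDC9-KO, a log2 fold change of 0.28 ± 0.10 (SE; limma, adjusted p = 0.0415) that turned to -0.60 after the length and GC correction.

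The 2 WT libraries were not level with each other over these genes. WT replicate 2 exceeded WT replicate 1 in 40 of the 46 genes, with a median ratio of 1.20, against a median ratio of 1.06 over all tested genes. The same held for 8294 of the 13246 tested genes. TXNDC9-KO replicate 2 exceeded TXNDC9-KO replicate 1 in 41 of the 46, with a median ratio of 1.07, against 1.04 over all tested genes. That was so for 8852 of the 13246 tested genes. The widest gaps between the WT libraries were at LSM5 and LSM7, and there the standard errors were 0.24 and 0.23.

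Transcript length moved with the change, among these genes and in the whole table. The Spearman correlation across genes between canonical transcript length and log2 fold change was 0.359 over the 46 genes and 0.495 over 13112 tested genes, and that with GC content was -0.332 and -0.462. Genes are not independent replicates, and all of these values come from the same 4 libraries. Length also moved with the ratio of the 2 WT libraries, with a correlation of -0.312 over the 46 genes and -0.325 over all. With the ratio of the 2 TXNDC9-KO libraries the correlation was -0.199 over the 46 genes and -0.0625 over all. Of the 46 genes, 23 fell in the shortest of 3 equal length classes, up to 1998 nt. Their median log2 fold change was -1.09 and 15 were called lower, where all genes of that class had a median of -0.72 and 31.0% were called lower. In the middle class, up to 4044 nt, 4 of 13 were called lower with a median of -0.78, against -0.11 and 10.4%. In the longest class 2 of 10 were called lower with a median of -0.10, against 0.61 and 4.12%. The list's median thus stood below that of all genes in each class, but the classes were not matched for expression level. The median of the WT mean was 103 FPKM over the 46 genes and 11.5 FPKM over all tested genes. WT mean also moved with the change, with a Spearman correlation of -0.586 over the 46 genes and -0.485 over the 13112. The WT values enter both the WT mean and the fold change, so these are not independent measures. The part of expression level in the list's median was not tested. The correction above took out length and GC content together, so the part of each in the calls was not tested. A canonical transcript may not be the form these cells make: LSM8 is listed at 12384 nt and SNRPD1 at 4858 nt, and their corrected log2 fold changes of -2.40 and -2.83 rest on those lengths.

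**Figure D5:**
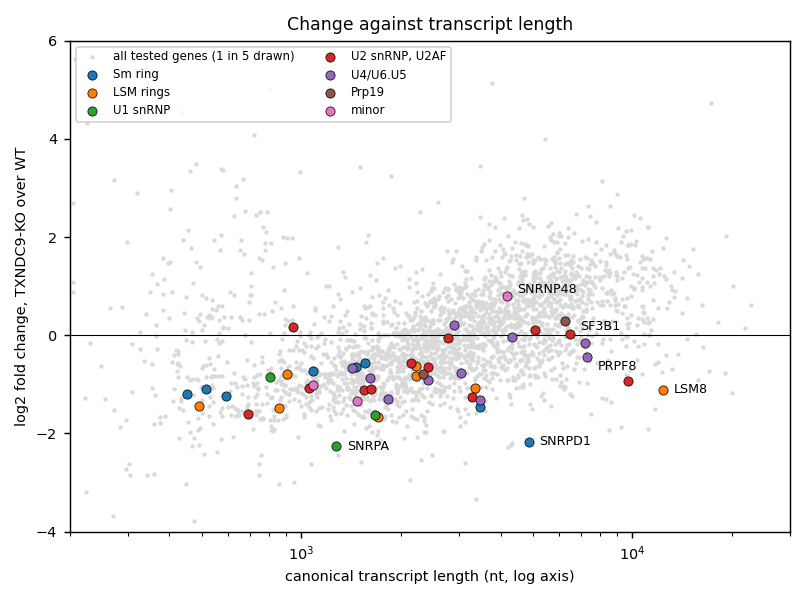
Coloured points are the 46 genes and grey points a regular sample of the tested genes, with canonical transcript length in nucleotides on a log axis and the log2 fold change of TXNDC9-KO over WT. Grey points rise from left to right, and SNRPA and SNRPD1 lie below most grey points of their length.

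The lists of related genes show the same scale dependence. Of 17 genes that assemble snRNPs, such as the SMN complex, 3 were called, all lower, a share near the 15.3% of all tested genes, and the median change was -0.67 in log2, or 0.0049 on the TPM scale. GEMIN6 and GEMIN7, which bind each other within the SMN complex, were called at -1.36 and -1.26. SMN2 was the other gene called, and reads of SMN1 and SMN2 cannot be told apart with certainty. Of 39 genes for other proteins of the major spliceosome, 9 were called lower and 1 higher, against 15.3% and 14.2% of all tested genes. Their median was -0.61 and became 0.06 on the TPM scale. SART1, a tri-snRNP protein, and BUD31, a protein of the activated spliceosome, were called at -1.94 and -1.87, and the kinase PRPF4B, named after its value was seen, was called higher at 1.09.

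Of 9 genes for other minor spliceosome proteins, 5 were called lower and 1 higher, against 15.3% and 14.2% of all tested genes. The median change was -1.06 in log2, or -0.38 on the TPM scale. ZMAT5, a protein of the U11/U12 particle, was at 32.6 and 45.8 FPKM in WT and at 10.2 and 9.82 FPKM in TXNDC9-KO, a log2 fold change of -1.94. SCNM1, a protein of the minor spliceosome, was at 88.6 and 125 FPKM in WT and at 28.8 and 32.1 FPKM in TXNDC9-KO, a log2 fold change of -1.79. RNPC3, which bridges U11 and U12 and was named after its value was seen, was the gene called higher, from 7.01 and 7.64 FPKM in WT to 16.7 and 18.3 FPKM in TXNDC9-KO, a log2 fold change of 1.25. On the deposited scale, genes for minor spliceosome proteins were thus found on both sides of 0, RNPC3 and SNRNP48 above and ZMAT5, SCNM1 and SNRNP35 below.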

How the data were processed

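RNA-seq libraries of 2 WT and 2 TXNDC9-KO samples were analysed, grouped by their labels. The authors mapped reads to hg38 with TopHat2, using an Ensembl annotation and only its junctions, and the deposited FPKM values per gene came from Cuffdiff, versions not given in the sources used here. The depth is not given. Among genes under 0.03 FPKM in both libraries of a pair, the most frequent ratio of replicate 2 to replicate 1 was 0.836 in TXNDC9-KO (33.3% of 505 genes) and 1.56 in WT (14.8% of 325 genes), a guide to what 1 read was worth in each. The authors' own fold change, p-value and q-value columns were not used. Identifiers in the table were out of register with the values and were put back in order (57979 genes, each identifier listed 4 times). For all 46 members the restored identifier carried the member's symbol in GENCODE 44.

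Genes with an average FPKM above 1 (13246 genes) were tested on log2(FPKM + 0.1), on which scale fold changes of low genes are understated, with limma 3.58.1 in R 4.3.3 (trend in the prior variance, Benjamini-Hochberg adjustment over all tested genes, calls at an adjusted p under 0.01 and at least 2-fold). Lengths and GC content are of GENCODE 44 canonical transcripts, and the correction used loess curves with a span of 0.3. The fit was tested on simulated data. With a length trend of a chosen size added there, the fit made false calls, which were absent after the loess correction. The added trend was in length alone, which the loess curve is built to take out. The simulation therefore cannot show how well the correction works on these libraries. Of the liver markers chosen, 1 is not reported here. Levels by library were given for the 3 largest and the smallest log2 fold change in each particle and for SNRPA, SNRPB2, SNRPB, SNRPN, SF3B1, PRPF8, SNRNP200 and TXNL4A; TXNDC9, MYC and the 2 most changed called genes of each related list were also named. The members, gene lists and tests were chosen with earlier results of these data known. Deviations of same-numbered replicates did not move together (correlation -0.0904 over 13246 genes), so no block entered the fit. Alternatives were other pseudocounts, filters, thresholds and scalings, a fit with no trend, a replicate block and the removal of each library.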

Additional observations from a re-analysis of the deposited data

How the results depend on the processing

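On the deposited scale 21 of the 46 genes were called lower and 0 higher, and their median change was -0.89 in log2. The count of lower calls was 2 on the TPM scale, 11 after the length and GC correction, 34 with no fold limit and between 0 and 25 with a library left out (0 without either TXNDC9-KO library, where the lone library is assumed to vary like the WT group). Higher calls were 1 on the TPM scale and 1 with no fold limit. The median was -0.21 on the TPM scale, -0.64 after the length and GC correction and -1.05 to -0.77 with a library left out. With no filter 17 genes were called lower, with no trend 19 and with centred libraries 24, and with pseudocounts of 0.01 and 1, an average FPKM above 5 (which drops U2AF1) or an adjusted p under 0.05 the count stayed at 21. Of all genes, the lower calls were 2021 on the deposited scale, 447 on the TPM scale and 969 after the correction. They were 2601 with centred libraries, 1919 with no trend and 1419 of 26435 genes with no filter, so the count over all genes moved as well. No count over all genes is given here for the fit with no fold limit. Its 34 lower calls thus have no share of all genes to be set against. At an unadjusted limma p under 0.05, also with no fold limit, 9442 of the 13246 tested genes passed in either direction.

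Same-numbered replicates share only a number, and a fit with the replicate block called 21 lower and 0 higher and changed no call among the 46. With the block and the length and GC correction together, 11 were called lower and the median was -0.64.

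Log2 fold changes that reversed on the TPM scale were LSM6 0.050, SNRPE 0.12, EFTUD2 0.65, SNRPB2 0.037, SNRPN 0.025, PRPF8 0.24, SNRNP200 0.51, SNRNP27 0.018, SF3A3 0.63, U2AF2 0.11, TXNDC9 0.12 and MYC 0.28. Those that reversed after the length and GC correction, with and without the replicate block, were CDC5L -0.60, SF3B1 -0.80, SNRPB 0.13, SF3A1 -0.19 and U2AF2 0.14. With centred libraries SF3B1 was -0.11 and SF3A1 -0.037. With a library left out SF3B1 ran from -0.0032 to 0.064, EFTUD2 from -0.12 to 0.057, SF3A1 from -0.094 to 0.31 and SF3A3 from -0.11 to 0.0018. The cause of these reversals was not tested. In alternatives added after the data were seen, the ratio of SNRPB2 to SNRPA in TXNDC9-KO over WT went from 3.08 to 1.48 after the length and GC correction, and that of SNRPN to SNRPB from 1.05 to 0.814.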
